A study of Bos taurus with 27 samples.

Results

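Transcripts of interferon-stimulated and antiviral genes were examined in 27 pools of bovine blastocysts, each pool holding 2 embryos, which were scored 7 for stage and 1 for quality on the scale of the International Embryo Technology Society. The genes were chosen by name as a list of 41 symbols, which stand for 40 genes because DDX58 is an older symbol of RIGI. Of these, 37 had a row among the 32637 genes of the count table. IFIT1, BST2 and IFITM3 had no row under those symbols. All embryos were produced in vitro from oocytes matured with fluid of preovulatory follicles that had been classed as of greater or lesser maturity. Neither the class of fluid nor the round of fertilization was assigned to a pool here, although pools shared rounds of fertilization, and the pools were treated as 1 group and compared through measures that varied across them. Sex and sire of the embryos were not given in the labels, though the study's methods state that semen of the same bull was used. Each pool mixed the RNA of its embryos. In such pools, fewer cells of a type and less RNA per cell cannot be told apart.

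Type I interferons are secreted proteins that bind a receptor made of IFNAR1 and IFNAR2. The kinases JAK1 and TYK2, bound to that receptor, phosphorylate STAT2, and a complex that holds STAT2 and IRF9 switches on a large set of antiviral genes. In ruminants the trophectoderm, the outer layer of the blastocyst, secretes its own type I interferon, interferon tau, which acts on the uterus as the signal of pregnancy. Genes such as ISG15 and MX1 are used in cattle as readouts of that signal in the mother, and the data here show how their transcripts varied in the embryo that makes it.

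Total counts ranged from 10517606 to 44253564 (median 22293594). Abundance is given as counts per 1000000 counts of the pool (CPM), so that 1 CPM was 10.5 to 44.3 counts. CPM was not divided by gene length. The fits compared pools for the same gene, and where levels of different genes are set side by side this is description only. The libraries carried blastocyst markers in every pool. Summed trophectoderm markers were between 16143 and 41094 CPM. Most of that sum was keratin, with medians of 18607 CPM for KRT8 and 7937 CPM for KRT18. GATA2 and GATA3, also in the sum, had medians of 63.6 and 132 CPM. The epiblast markers NANOG and POU5F1 had medians of 51.6 and 399 CPM. The hypoblast markers SOX17 and FOXA2 had a median of 0 CPM, whereas GATA6 had a median of 211 CPM and FN1 one of 712 CPM. FN1 was the largest part of the hypoblast marker sum, whose median was 1000 CPM. Of 17 leukocyte markers, 10 were retained by the filter below. The sum of all 17 was 207 to 594 CPM, most of it CD48, while LAPTM5 was at most 0.138 CPM. A pair of libraries stood apart. Pool 9 had the highest interferon tau. Pool 31 had the highest trophectoderm marker sum, the lowest epiblast and leukocyte marker sums and the lowest value on principal component 1. Pool 31 also had the fewest genes with counts, 15491, at a total count of 30679078. Calls of listed and further pathway genes that were lost without pool 9 or without pool 31 are also given without that pool.

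The interferon tau transcripts that served as the reference measure were the sum of IFNT2, IFNT3, IFN-TAU and IFN-tau-c1. The sum was 7.21 CPM in the lowest pool, 41.9 CPM in the median pool and 597 CPM in pool 9, a range of 82.7-fold. After pool 9 came pool 14 at 265 CPM, pool 19 at 199 CPM and pool 42 at 167 CPM. IFNT3, on chromosome 8 from 22582520 to 22583580 in ARS-UCD2.0, made up 88.4 to 100% of the sum. These genes are close copies of each other, so the division of reads between them is uncertain and the sum was used, apart from an alternative fit on IFNT3 alone. Other interferon ligands that had a row under an interferon gene symbol were nearly absent. Ligand genes under other symbols were not searched for. Of 14 rows for interferon alpha, beta, gamma, epsilon, kappa, lambda and omega genes, 9 had no counts in any pool and the highest value in any pool was 1.88 CPM, for IFNK.

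The receptor and its kinases were detected in all pools. IFNAR1, the receptor chain on chromosome 1 from 2187824 to 2218344, was 8.86 CPM in the lowest pool, 15.2 CPM in the median and 23.9 CPM in the highest. IFNAR2, the chain that binds the ligand most tightly, was 0.214, 0.658 and 1.65 CPM. JAK1, the kinase bound to IFNAR2, was 28.7, 39.6 and 66.4 CPM. Both receptor chains therefore had counts in every pool, but IFNAR2 reached at least 1 CPM in too few pools to be retained. TYK2, the kinase bound to IFNAR1, was 3.18, 5.75 and 9.13 CPM.

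All 5 transcription factors of the list were retained. STAT2, a partner of IRF9, was 4.32, 10.6 and 24.2 CPM in the lowest, median and highest pool. IRF9 was 0.359, 10.5 and 22.7 CPM, and its lowest value was in pool 31. IRF3, which is activated downstream of viral sensors, was 37.2, 62.0 and 84.2 CPM. IRF7, the factor that amplifies interferon production, was 10.9, 36.5 and 68.9 CPM, and IRF1 had a lowest value of 3.52 CPM and a median of 9.24 CPM. IRF3 and IRF7 were both highest in pool 14, whereas STAT2 and IRF9 were both highest in pool 38.

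The sensors of foreign nucleic acid were low, with wide spread. IFIH1, which detects long double-stranded RNA, was 0.536, 1.51 and 4.89 CPM. RIGI, which detects RNA with 5′ triphosphate ends, was 0.228, 3.46 and 9.16 CPM. Both sensors were highest in pool 9. CGAS, a sensor of cytosolic DNA, was 0.125, 2.88 and 7.62 CPM, and MAVS, the mitochondrial adaptor that RIGI and IFIH1 share, was 3.99, 7.28 and 15.3 CPM. MAVS was the only one of these 4 genes at 1 CPM or more in every pool.

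Genes of the ISG15 pathway differed in how many pools held them. ISG15, a ubiquitin-like protein that is joined to other proteins, was 0.326 CPM in pool 31, 1.71 CPM in the median pool and 4.75 CPM in pool 9. USP18, which removes ISG15 from proteins and restrains the receptor, was 0, 0.261 and 2.96 CPM, with no counts in 5 pools and its highest value in pool 9. HERC5, the ligase that joins ISG15 to proteins in humans, was 7.90, 20.6 and 40.7 CPM. HERC5 was lowest in pool 19, a pool high in interferon tau.

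The effector genes, which act on viral RNA and proteins, were mostly near 1 to 3 CPM in the median pool or below. IFIT2, IFIT3 and IFIT5, which neighbour each other on chromosome 26 and encode proteins that bind viral RNA or its translation machinery, had medians of 2.65, 3.15 and 1.31 CPM and highest values of 5.87, 6.86 and 4.29 CPM. OAS1Y, one of several bovine OAS1 genes, whose enzymes make the messenger that activates RNase L, was 0.214, 1.51 and 8.52 CPM. Its highest values were 8.52 CPM in pool 14 and 8.30 CPM in pool 12, far above the median. OAS1X, OAS1Z and OAS2 were not retained, with medians of 0.0951, 0.756 and 0 CPM. The OAS genes lie side by side on chromosome 17, OAS2 from 61337090 to 61365030 overlaps OAS1Y from 61363053 to 61370988, and the OAS1 copies are similar, so how reads were split among them is uncertain. OAS2 had no counts in 14 pools, in which 3 counts correspond to somewhere between 0.0678 and 0.285 CPM, the range over all pools, and this limit covers counting error only.

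EIF2AK2, the kinase that halts translation on double-stranded RNA, was 0.214, 4.71 and 22.7 CPM, with pools 9 and 5 highest at 22.7 and 13.4 CPM. MX1, a GTPase that traps viral particles, on chromosome 1 from 141668304 to 141706499, was 0.538 CPM in pool 44, 1.55 CPM in the median pool, 9.31 CPM in pool 19 and 16.9 CPM in pool 9. Pools 9 and 19 thus stood above the other 25 pools, of which the highest was 4.25 CPM. MX2, its neighbour, had no counts in 8 pools and reached 1.41 CPM in pool 19. RSAD2, also called viperin, was 0, 0.220 and 1.32 CPM, and ISG20, an RNA exonuclease, was 0.655, 1.95 and 4.14 CPM.

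IFITM1, a membrane protein that blocks virus entry, was 1.98, 7.15 and 20.2 CPM, and IFITM2 was at most 0.138 CPM. The symbol IFITM3 is a RefSeq synonym of LOC777594, which had a median of 99.9 CPM and a highest value of 190 CPM, and of a second locus with few counts. Because the list names IFITM3 and the table does not, these loci were not counted among the genes of the list, and reads could be divided among such similar genes. Of the other stimulated genes, IFI35 was 31.8, 65.8 and 106 CPM. IFI6 and IFI27, small hydrophobic proteins strongly induced by interferon in other tissues, were 1.10, 3.52 and 49.2 CPM and 0.306, 2.13 and 38.5 CPM. Both were highest in pool 12 and second highest in pool 23, at 29.3 CPM for IFI6 and 10.3 CPM for IFI27. XAF1, which promotes apoptosis, was 0.230, 1.55 and 7.64 CPM, again highest in pool 9, while IFI44, IFI44L and SAMD9 had medians of 0.514, 0.504 and 0.576 CPM and were not retained.

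**Figure D1:**
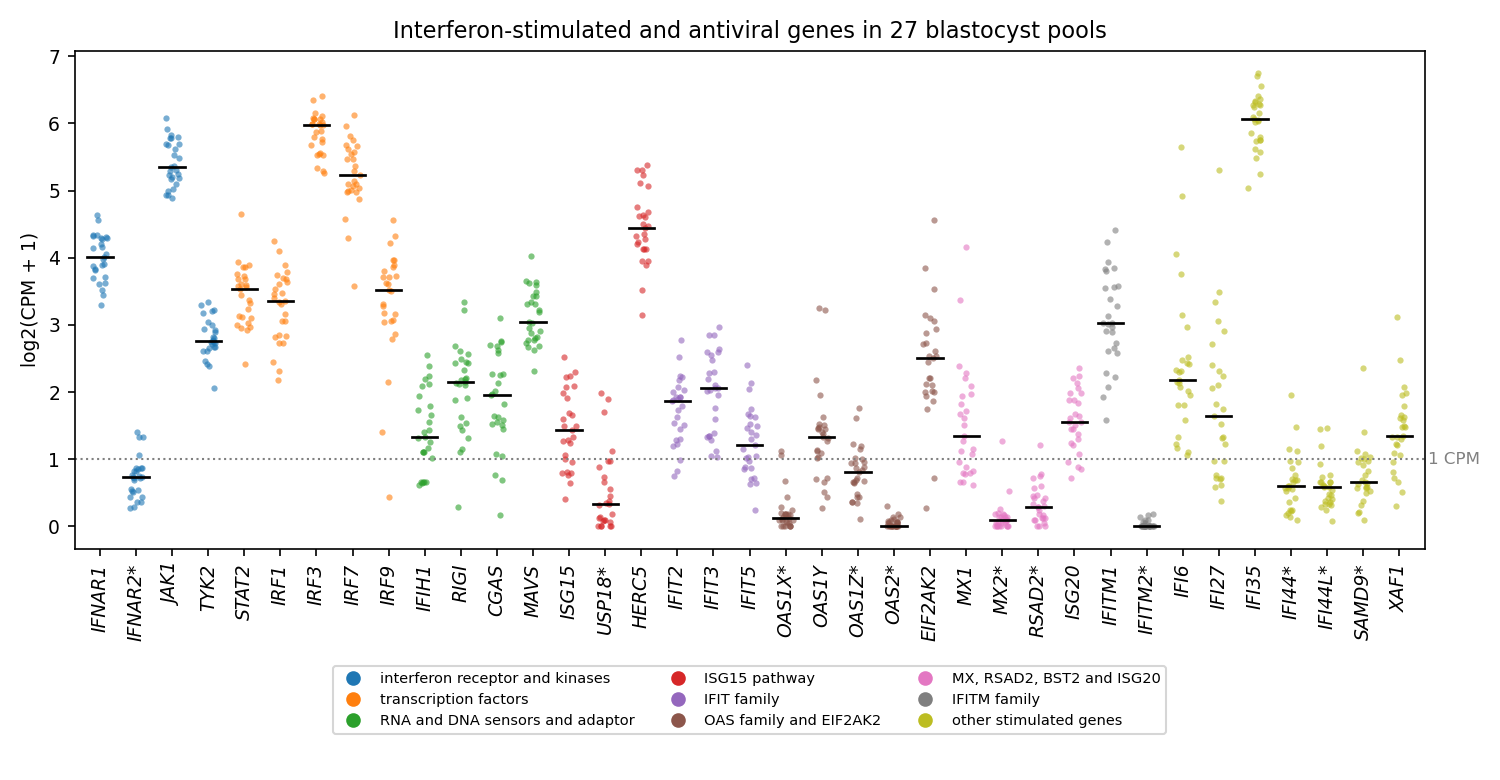
Transcript abundance of the 37 genes as log2(CPM + 1), with 1 point per pool, a bar at the median of the 27 pools and colours for the role of the gene; an asterisk marks the 11 genes that were not retained. The transcription factors, JAK1, HERC5 and IFI35 lie well above the dotted line at 1 CPM in nearly every pool, whereas IFI6, IFI27, MX1 and EIF2AK2 each have single pools far above their median.

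Retention required at least 1 CPM in 12 pools. By that rule 26 of the 37 genes were retained (70.3%), compared with 37.7% of all genes in the table, and 13 of the 26 had at least 1 CPM in all pools. Retained genes of the list had a median of 5.83 CPM when averaged over pools, compared with 15.0 CPM for all 12310 retained genes. Their coefficient of variation across pools had a median of 50.1%, compared with 32.5% for all retained genes, and exceeded 60% for 10 of 26 (38.5%), compared with 17.4% of all retained genes. A mean under 5 CPM was held by 46.2% of the retained genes of the list and by 27.5% of all retained genes. The part of this difference in level in the difference in variation was not tested.

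The high values were not spread evenly over pools. Pool 9 was the highest of 27 for 7 of the 26 retained genes (IFIH1, RIGI, ISG15, EIF2AK2, MX1, IFITM1 and XAF1), and it was the highest for 7.37% of all retained genes. Pool 31 was the highest for none of the 26 but for 9.20% of all retained genes. Pool 31 also gave the lowest ISG15, IFIT2, IFIT3, RIGI, IRF1 and IRF9. Pools 12 and 14 were each highest for 3 of the 26, namely IFIT5, IFI6 and IFI27 in pool 12 and IRF3, IRF7 and OAS1Y in pool 14.

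The first comparison asked which of these genes rose or fell with the interferon tau transcripts of the same pool. MX1 and IRF7 rose with interferon tau, and none of the 26 retained genes fell. MX1 was between 0.538 and 16.9 CPM and was highest in pools 9 and 19, of which pool 9 was first and pool 19 followed pool 14 in interferon tau. IRF7 was between 10.9 and 68.9 CPM and was highest in pool 14, second in interferon tau. ISG15, the gene most often used as a readout of interferon tau in the mother, did not pass the test.

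The test was edgeR's quasi-likelihood test of a slope, the log2 change in a gene per unit of log2(interferon tau CPM + 1), which is nearly a doubling of interferon tau at these levels, with Benjamini-Hochberg adjustment over 12308 genes and a threshold of 0.05. It called 282 genes, or 2.29%, of which 192 rose (1.56%) and 90 fell (0.731%). Among the 26 retained genes of the list it called 2. MX1 had a slope of 0.58 (SE 0.10, adjusted p = 0.00147). IRF7 had a slope of 0.20 (SE 0.05, adjusted p = 0.033), a smaller slope with a smaller error.

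The other slopes did not pass. EIF2AK2 had a slope of 0.32 (SE 0.11, adjusted p = 0.107) and IFIH1 had a slope of 0.33 (SE 0.11, adjusted p = 0.11). XAF1 had a slope of 0.30 (adjusted p = 0.122) and IFI6 had a slope of 0.45 (SE 0.18, adjusted p = 0.191), whereas ISG15 had a slope of 0.19 (SE 0.11, adjusted p = 0.412). HERC5 and CGAS had the lowest slopes, -0.17 (adjusted p = 0.194) and -0.22 (adjusted p = 0.423). IFNAR1, JAK1, TYK2, MAVS, IRF1, IRF3, IRF9, STAT2, RIGI and IFI35, the receptor chain, kinases, factors and sensors among them, had slopes between -0.07 and 0.08. A slope above 0 was seen for 21 of the 26, compared with 48.6% of all genes tested, and the median slope was 0.12, compared with -0.0030 over all genes. With p of 0.05 or less before adjustment, 7 of the 26 had a positive slope and 1 a negative slope, compared with 16.3% of all genes in either direction.

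**Figure D2:**
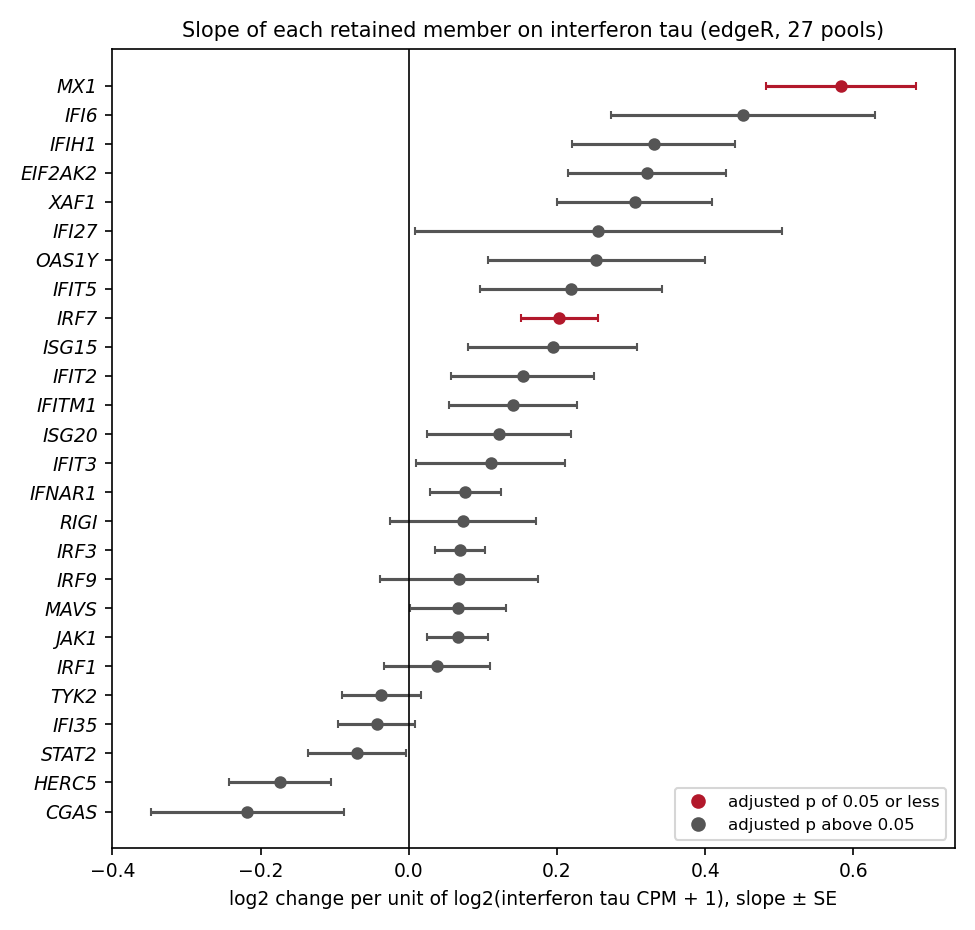
Slope of each of the 26 retained genes on interferon tau, as log2 change per unit of log2(interferon tau CPM + 1), with bars of 1 SE, from the fit over 27 pools. MX1 and IRF7, in red, had an adjusted p of 0.05 or less; 21 of the 26 points lie to the right of 0.

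MX1 depended on pool 9. Without that pool the slope of MX1 was 0.46 with an adjusted p of 0.095, IRF7 had a slope of 0.24 with an adjusted p of 0.0543, and 41 genes in all were called (0.333%), with 0 of the list. DESeq2 called MX1 and IRF7 with 4.18% of all genes, and edgeR with no filter on abundance called both with 3.7%. MX1 was called in the other 26 fits that each left out 1 pool. IRF7 was called in 22 of the 27 such fits and was not called without pool 9, 14, 15, 28 or 32, with adjusted p between 0.00773 and 0.0661. As a rank correlation with interferon tau over 27 pools, IRF7 had a Spearman rho of 0.628 (permutation p = 0.00063, adjusted p = 0.0491), in a test that called 1.31% of all genes, and MX1 had a rho of 0.595 (permutation p = 0.00118, adjusted p = 0.0637). Pearson's r of log values was 0.571 for IRF7 (permutation p = 0.0018, adjusted p = 0.065) and 0.700 for MX1 (permutation p = 3e-05, adjusted p = 0.00972). Leaving out pools 9 and 14, the farthest from the median in interferon tau, gave an r of 0.544 for IRF7 and 0.564 for MX1. Both genes thus kept their direction in all of these fits, and the call for either rested on few pools.

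**Figure D3:**
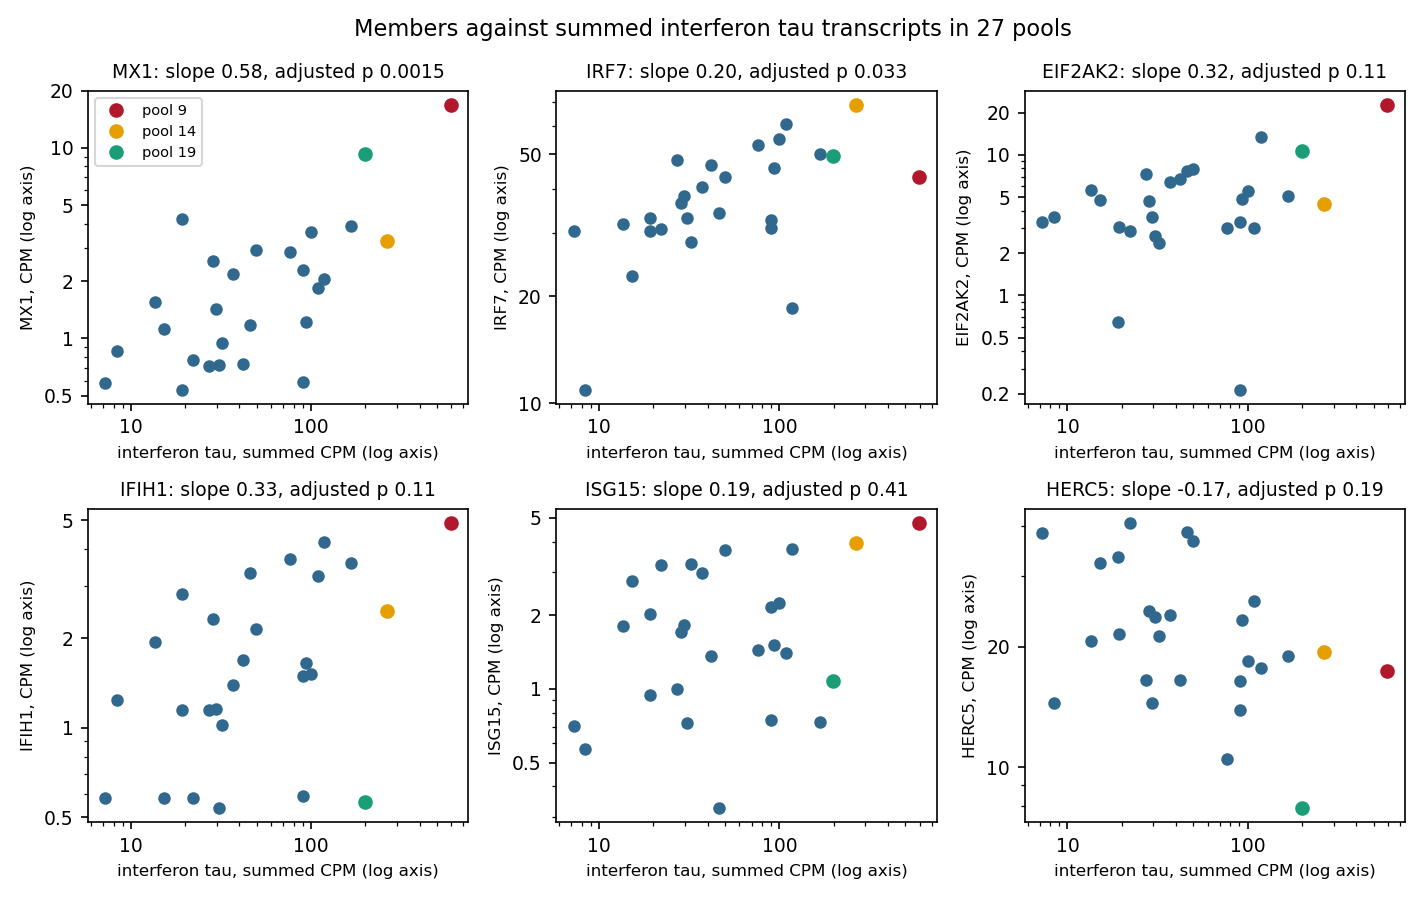
CPM of MX1, IRF7, EIF2AK2, IFIH1, ISG15 and HERC5 against summed interferon tau CPM, both on log axes, with 1 point per pool and pools 9, 14 and 19 coloured. Pool 9, at 597 CPM of interferon tau, is highest for MX1, EIF2AK2, IFIH1 and ISG15 but not for IRF7 or HERC5, and pool 19 is second highest for MX1 but among the lowest for IFIH1.

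Other measures of the pools were set against interferon tau as well. Pool 9 had the lowest hypoblast marker sum, of which FN1 was the largest part, at 346 CPM against a median of 1000 CPM. It also had the lowest Y-linked transcripts of the 18 pools high in them. Of 7 relations of interferon tau with pool measures, none passed by rank correlation after adjustment. Over 27 pools the relation with leukocyte markers had a rho of 0.402 (permutation p = 0.0374, adjusted p = 0.131) and an r of 0.337 (permutation p = 0.0848, adjusted p = 0.159), while dropping pools 9 and 14 gave an r of 0.510. The relation with hypoblast markers had a rho of -0.319 (permutation p = 0.106, adjusted p = 0.16) and an r of -0.463 (permutation p = 0.015, adjusted p = 0.0524), while dropping the same pools gave -0.289. Within the 18 pools where Y-linked transcripts were high, their relation with interferon tau had a rho of -0.569 (permutation p = 0.0151, adjusted p = 0.106) and an r of -0.697 (permutation p = 0.00127, adjusted p = 0.00889), which became -0.468 after dropping pools 9 and 14 (permutation p = 0.0676, adjusted p = 0.158) and so rested on them. The relations with total count, trophectoderm markers and epiblast markers had a rho of 0.312, 0.0226 and -0.285 and an r of 0.291, 0.0356 and -0.259, with permutation p between 0.114 and 0.911 and adjusted p between 0.16 and 0.911. Within the 9 pools low in Y-linked transcripts rho was 0.600 (exact permutation p = 0.0968, adjusted p = 0.16) and r was 0.599 (exact permutation p = 0.091, adjusted p = 0.159). The slope of MX1 on interferon tau stayed past the threshold with each added covariate, at 0.61 with Y-linked transcripts, 0.63 with total count, 0.55 with leukocyte markers, 0.59 with trophectoderm markers and 0.57 with principal component 1. IRF7 was not called with Y-linked transcripts (adjusted p = 0.0874), total count (adjusted p = 0.0561) or principal component 1 (adjusted p = 0.0897) in the model. The part of the hypoblast marker sum in either result was not tested.

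Of 64 further genes of the interferon pathway listed beside these, 61 had a row and 40 were retained. Of the 40, 2 rose with interferon tau and none fell, where 1.56% of all genes rose. NMI, an interferon-induced protein, had a slope of 0.34 (SE 0.07, adjusted p = 0.00873), and its CPM was 2.09, 9.73 and 25.3 in the lowest, median and highest pool. IRF5, a further interferon regulatory factor, had a slope of 0.26 (SE 0.05, adjusted p = 0.00873), and its CPM was 12.4, 30.9 and 65.3. Without pool 9, IRF5 was called (slope 0.29, adjusted p = 0.0174) and NMI was not (slope 0.32, adjusted p = 0.0845). Without pools 9 and 14 neither was called, with adjusted p of 0.053 for IRF5 and 0.0895 for NMI. The genes with the smallest p over the whole table were LOC112445660, IGFBP6, IL36RN, UBD and TUBB6, with slopes of 0.99, 0.69, 0.57, 0.46 and 0.49. Of these, UBD encodes a ubiquitin-like protein that is induced by cytokines, and none was in the list of stimulated genes. LOC112445660 lies on a sequence without an assigned chromosome and had a median of 30.2 CPM. Whether this locus shares reads with the interferon tau genes was not tested.

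The second comparison asked which genes rose with ISG15 itself, without reference to interferon tau. OAS1Y, IFI6 and IFI27 rose with ISG15, and none of the 25 other retained genes fell. Pools 12 and 14, with ISG15 of 3.68 and 3.94 CPM, gave OAS1Y of 8.30 and 8.52 CPM, while pool 31, with the lowest ISG15, gave 0.359 CPM. Pool 9, the highest in ISG15, was at 1.51 CPM of OAS1Y, which was the median.

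The covariate was log2(ISG15 CPM + 1), and because ISG15 was near 1 CPM, 1 unit of it is more than a doubling of ISG15. The slope of OAS1Y was 1.62 per unit (SE 0.29, adjusted p = 0.0147), that of IFI6 was 1.78 (SE 0.35, adjusted p = 0.0209) and that of IFI27 was 2.18 (SE 0.43, adjusted p = 0.0209), by edgeR's quasi-likelihood test with Benjamini-Hochberg adjustment. The fit called 115 of 12309 genes, or 0.934%, of which 57 rose (0.463%) and 58 fell (0.471%). DESeq2 called IFIT3 in addition, with 2.58% of all genes, and edgeR with no filter called IFIT3, IFI44 and IFI44L in addition, with 4.09%. By rank correlation OAS1Y alone was called, with 0.0406% of all genes. Next were IFIT3 with a slope of 0.91 (adjusted p = 0.0572), XAF1 with 0.94 (adjusted p = 0.101), IFIT2 with 0.70 (adjusted p = 0.132) and MX1 with 0.97 (adjusted p = 0.15). IRF7, called with interferon tau, had a slope on ISG15 of 0.08 (adjusted p = 0.851). Slopes above 0 were seen for 22 of the 25, compared with 51.5% of all genes, and the median slope was 0.24, compared with 0.0098 over all genes. None of the 40 further pathway genes was called in either direction.

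These calls depended on single pools. Without pool 31 no gene in the table was called, and the highest adjusted p of OAS1Y among the fits that each left out 1 pool, 0.0523, came from that fit. Without pool 12 only OAS1Y was called of the list, and without pool 9 only OAS1Y and IFI27, among 4 genes in all (0.0325%). With principal component 1 in the model none was called, and OAS1Y had an adjusted p of 0.0501. ISG15 was measured from 6 to 116 counts per pool, so the covariate carried counting error of its own. With the interferon tau covariate added, all 3 remained called, with slopes of 1.58 for OAS1Y, 1.62 for IFI6 and 2.14 for IFI27.

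Several effector genes varied together across pools, and so did several of the transcription factors. The closest pairs by Spearman's rho over 27 pools were MX1 with IFI6 at 0.797, OAS1Y with IFI6 at 0.776, IFI6 with IFI27 at 0.764, IFIT3 with ISG20 at 0.750, ISG15 with OAS1Y at 0.742 and IFIT2 with IFIT3 at 0.732. A second set of close pairs held transcription factors, with IRF3 and IRF7 at 0.672, IRF1 and IRF3 at 0.623, IRF7 and IRF9 at 0.616 and IRF3 and IRF9 at 0.613. HERC5 and RIGI went in opposite directions, at -0.598, the only pair under -0.5. Between ISG15, OAS1Y, MX1, IFI6 and IFI27 on one side and IRF1, IRF3, IRF7 and IRF9 on the other, the 20 values of rho ran from 0.0092, for ISG15 with IRF7, to 0.453, for OAS1Y with IRF1, with a median of 0.311. Both sets were picked from these same correlations, so they do not show separate groups of genes. Factors were also close to genes outside the sets, with IRF1 and IFITM1 at 0.649 and IRF3 and IFIH1 at 0.621. STAT2, a factor left out of the sets, was at -0.051 with IRF3.

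The median rho of the 325 pairs of retained genes was 0.179, compared with 0.0250 for all pairs of retained genes in the table. Of the 325 pairs, 31 exceeded 0.5 (9.54%), compared with 1.88% of all pairs. Leaving out each pool in turn gave a median between 0.158, without pool 9, and 0.208. For the 8 retained genes that averaged at least 10 CPM the median was 0.0317. Values of a pair came from the same libraries and share their depth and composition, so these correlations are descriptions.

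**Figure D4:**
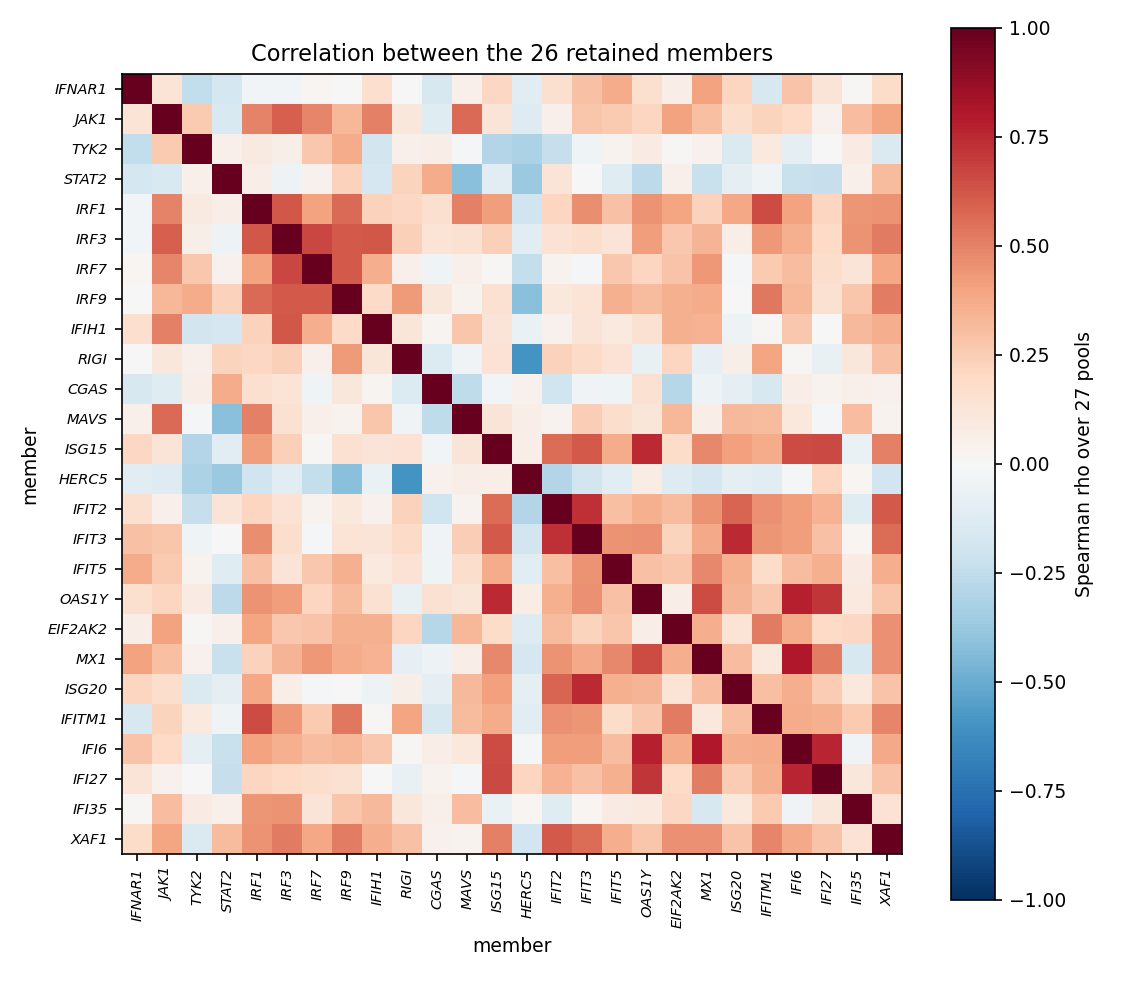
Spearman's rho over 27 pools for every pair of the 26 retained genes, in the order of their roles, from -1 in blue to 1 in red. The block of ISG15, OAS1Y, MX1, IFI6 and IFI27 and the block of IRF1, IRF3, IRF7 and IRF9 are red, whereas the HERC5 row is mostly pale or blue, down to -0.598 with RIGI.

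The third comparison set the genes against Y-linked transcripts, the sum of DDX3Y, EIF1AY, USP9Y, ZFY and ZRSR2Y, since pools of embryos can differ in the number of males. The pools fell apart into 9 with 0.430 to 1.65 CPM and 18 with 18.9 to 197 CPM. IFI6 and IFI27 fell as Y-linked transcripts rose, and no gene of the list rose. IFI6 was 1.15, 3.97 and 49.2 CPM in the lowest, median and highest of the 9 low pools and 1.10, 3.40 and 15.6 CPM in the 18 high pools. IFI27 was 0.645, 2.52 and 38.5 CPM in the low pools and 0.306, 1.44 and 7.37 CPM in the high pools. The 2 sets of pools overlapped for both genes, and the medians were close for IFI6.

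The slope per unit of log2(Y-linked CPM + 1) was -0.32 for IFI6 (SE 0.09, adjusted p = 0.0379) and -0.37 for IFI27 (SE 0.11, adjusted p = 0.0408), by the same test. The fit called 672 of 12305 genes, or 5.46%, of which 307 rose (2.49%) and 365 fell (2.97%), so 2 of 26 was near the share of all genes. Both slopes rested on pools 12 and 23, which were low in Y-linked transcripts. Without these pools, a choice made after seeing the data, the slope was -0.0056 for IFI6 (adjusted p = 0.987) and -0.11 for IFI27 (adjusted p = 0.725). Leaving out single pools ended the call of IFI6 in 8 of 27 fits and of IFI27 in 13, with pools 12, 23 and 31 among them in both cases. Without pool 31 the slope was -0.31 for IFI6 (adjusted p = 0.0539) and -0.35 for IFI27 (adjusted p = 0.0568). DESeq2 and edgeR with no filter called the same 2 genes of the list, with 7.2% and 7.08% of all genes. By rank correlation, which called 5.84% of all genes, neither passed, and IRF3 alone did (permutation test, adjusted p = 0.044). Y-linked transcripts were not spread evenly but either low or high, so these slopes and ranks over 27 pools mostly set the low pools against the high pools. IRF3 was 62.0 to 80.2 CPM in the 9 low pools and 37.2 to 84.2 CPM in the 18 high pools, and IRF7 had medians of 46.6 and 32.9 CPM. Of the further pathway genes, TDRD7 fell with a slope of -0.13 (adjusted p = 0.0394) and LGALS3BP fell with a slope of -0.15 (adjusted p = 0.00967). Among the 27 fits that each left out 1 pool, LGALS3BP was called in 27 and TDRD7 in 14, with a highest adjusted p of 0.0961 for TDRD7 without pool 13.

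**Figure D5:**
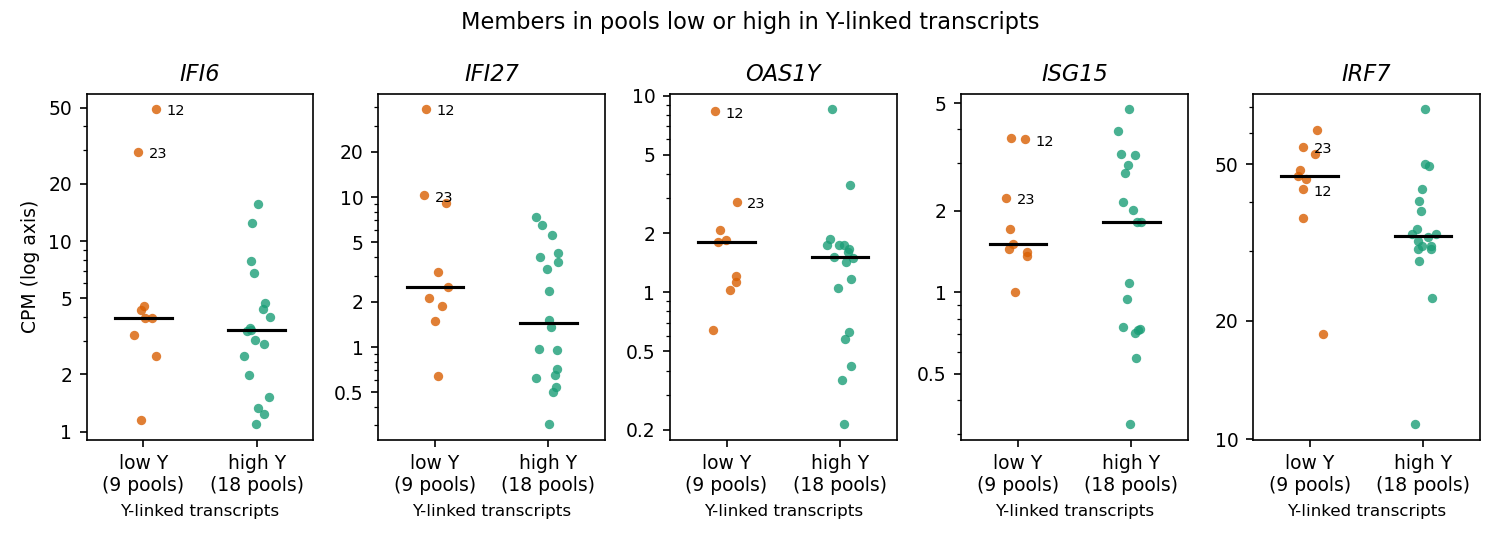
CPM on log axes of IFI6, IFI27, OAS1Y, ISG15 and IRF7 in the 9 pools low and the 18 pools high in Y-linked transcripts, with 1 point per pool, a bar at the median and pools 12 and 23 numbered. Pools 12 and 23 hold the highest values of IFI6 and IFI27. The remaining low pools lie within the range of the high pools for IFI6. For IFI27 they do so except pool 41, at 9.10 CPM against a highest value of 7.37 CPM in the high pools.

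Against the total count of the pool, a measure of depth, edgeR and DESeq2 each called 0 genes of the table and 0 of the list. Before adjustment edgeR gave 340 genes with p of 0.05 or less, or 2.76%, and 1 of the 26, IFI6, with a slope of 0.88 per doubling of the total count (SE 0.43, adjusted p = 0.9998). With no filter edgeR called 2.28% of all genes and again 0 of the list. Pools 12 and 23, highest in IFI6, had total counts of 29633494 and 44253564. Pools 9 and 31, at the ends of the ISG15 range, had total counts of 14526367 and 30679078.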

How the data were processed

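RNA of 27 pools of blastocysts was sequenced as 3′ mRNA libraries. Per the study's methods, fastp trimmed the forward reads, STAR aligned them to the ARS-UCD2.0 assembly and featureCounts assigned them to genes. The values the authors deposited are these counts, not normalized. Versions, the annotation release and the strand setting are not given in the sources used here, so reads of overlapping or antisense genes may not be told apart. Amplified reads are not separate molecules. Per the study's methods the pools came from both treatments and a few shared rounds of fertilization. Which pools share a round was not assigned, so the fits treat pools as independent, and p-values may be too small.

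CPM was the count per 1000000 counts of its pool. A gene was retained if 12 or more pools had 1 CPM or more. Slopes on log2(CPM + 1) of summed interferon tau, ISG15 or summed Y-linked transcripts, and on log2 total count, were fitted over all 27 pools with edgeR 4.0.16 (R 4.3.3; TMM, glmQLFit and glmQLFTest, Benjamini-Hochberg), leaving the genes of the covariate out. The SE was the slope divided by the square root of F. DESeq2 1.42.0 was an alternative. Permutation tests were two-sided with 100000 permutations, or exact for fewer than 10 pools. The interferon tau fit was tested on counts simulated with independent pools. It called 20 of 100 genes given a slope of 0.15 in size and 64 of 100 given 0.3, with 2 false calls. A slope of such size that did not pass can thus have been missed. The genes given slopes were drawn from all retained genes. At the median those are higher and less variable than the retained genes of the list, for which the rates may be lower. Markers of the lineages, leukocytes, cumulus cells and sperm were summed as CPM. The genes named were all genes of the list, the genes called among further pathway genes, and the 5 with the smallest p. The members, lists and tests were chosen with earlier results of these data known. Gene positions are RefSeq's. Follicular fluid treatment was not assigned and not analysed here, and neither were rounds of fertilization, so within-batch values could not be computed and round cannot be told apart from the measures compared. A result for a further pathway gene is not reported here.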

Additional observations from a re-analysis of the deposited data

How the results depend on the processing

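Direction was kept by every named call under every alternative run, and no called value reversed. The number of genes called with interferon tau, 282, became 514 with DESeq2, 911 with no filter (where the total count, which had called 0, called 561), 95 without the 2 pools farthest from the median, 41 without pool 9, 161 by Spearman permutation, and 121, 155, 465 and 144 with Y-linked transcripts, leukocyte markers, trophectoderm markers or principal component 1 in the model. Leaving out single pools gave 41 to 371. The 2 members called with interferon tau became 1 at 1 CPM in all pools (MX1 was then not tested), 0 without the 2 farthest pools or pool 9, 1 with Y-linked transcripts, total count or principal component 1 added, 1 by Spearman permutation, and 0 to 3 without single pools. The 3 called with ISG15 became 6 with no filter (IFIT3, IFI44 and IFI44L added), 1 without the 2 farthest pools, 1 with MX1 in place of ISG15, 0 with principal component 1, 1 by Spearman permutation, and 0 to 5 without single pools. The 2 called with Y-linked transcripts became 1 at 1 CPM in all pools, 1 without the 2 farthest pools, 1 by Spearman permutation, 0 without pools 12 and 23, 0 with interferon tau added, and 0 to 3 without single pools. Genes retained were 13 rather than 26 at 1 CPM in all pools. The median rho of 0.179 was 0.1496 on TMM library sizes, 0.0317 at a mean of 10 CPM or more and 0.158 without pool 9. Pearson's r of interferon tau with hypoblast markers was -0.501 on TMM library sizes (permutation test, adjusted p = 0.0266), and within pools high in Y-linked transcripts r was -0.468 without the 2 farthest pools. The cause of these differences was not tested, apart from the fewer pools or genes that some alternatives use by construction. The fits without single pools, without pools 12 and 23, and those adding interferon tau to the Y-linked model or interferon tau or Y-linked transcripts to the ISG15 model were chosen after seeing the data. No paired analysis was possible because all pools form 1 group and neither the treatment nor the fertilization replicate was assigned. Depth limited the lowest genes: in the shallowest pool 1 CPM was 10.5 counts, and the 11 genes not retained were tested only in the fits with no filter.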
